A study of Mus musculus with 8 samples.

Results

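Neurospheres labelled Hdac3 KO were compared with wild-type (WT) neurospheres across the whole transcriptome, in 4 of the 8 libraries of the study. Neurospheres are floating cultures grown from neural stem and progenitor cells. The libraries were taken by their labels, KO 7 and KO 8 for the Hdac3 KO cultures and WT 5 and WT 6 for the wild-type cultures, and 11496 genes had values in all 4. Both genotypes were on the C57BL/6 background, and both sets of spheres were grown from cerebrum of E16.5 until day 4 in a medium for neural stem cells. The design text counts 2 brains of each genotype and calls the mutant a conditional knockout, so the libraries were read as separate brains. The p-values below measure the spread between these cultures alone. The sources used here name neither the Cre driver behind the neurosphere knockout nor the share of cells that had lost the gene. The other 4 libraries of the study, from newborn cortex, were not analysed here.

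HDAC3 removes acetyl groups from histones and is the enzyme of corepressor complexes such as the one built on NCoR. Nuclear receptors and other DNA-binding repressors recruit these complexes to their targets, where the loss of acetylation keeps transcription low. A neurosphere is a mixture of stem cells, dividing progenitors and the young neurons and glia that form from them, and the inside of a sphere is known to be short of oxygen. Cells that lack oxygen stabilise the HIF transcription factors, which bind a short element around ACGTG and turn on glucose uptake, glycolysis, lactate export and vessel growth factors.

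Values are FPKM, fragments normalized to transcript length and library size, as the authors deposited them. Every gene of the deposited table had at least 0.9994 FPKM in both WT libraries, whereas 691 rows fell below that in a KO library. Genes without RNA in WT that KO cultures express are for this reason not listed there. They could only be read from the authors' deposited DESeq2 table, which lists 17053 genes. The median gene rested on 348 to 440 fragments per library, as implied by the Cufflinks intervals. Across genes, the Pearson correlation of log2(FPKM + 1) was 0.967 between the KO libraries, 0.976 between the WT libraries and 0.941 to 0.961 between genotypes, where genes are not independent replicates.

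The cultures carried the markers their label implies. The intermediate filament gene Nes, which marks neural stem cells, measured 61.9 and 79.8 FPKM in KO 7 and KO 8, against 111 and 109 FPKM in WT 5 and WT 6. The stem cell factor Sox2 measured 29.1 and 32.9 FPKM in KO, against 41.2 and 34.4 FPKM in WT, and Fabp7, the fatty acid binding protein of radial glia, 351 and 396 FPKM in KO, against 679.6 and 461 FPKM in WT. Neuronal RNA was also abundant, with the neuronal tubulin Tubb3 at 402 and 391 FPKM in KO, against 441 and 335 FPKM in WT. Of the markers of other cell types, 4 of 24 of microglia, 2 of 20 of endothelium and pericytes, 4 of 18 of meningeal fibroblasts and 1 of 12 of erythroid cells were in the FPKM table. In the authors' deposited table, 17 of the 18 meningeal markers were present, with a median mean normalized count of 174, against 5.65 for the 20 microglial markers present and 256 over all genes. In bulk RNA of this kind, fewer cells of a type and less RNA per cell cannot be told apart.

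Hdac3 itself was read in every library first. It measured 18.03 and 20.5 FPKM in KO 7 and KO 8, against 34.4 and 28.7 FPKM in WT 5 and WT 6, so the groups did not overlap. The share of all genes whose groups did not overlap was not counted. A lack of overlap, here and below, only describes the values. The log2 fold change, here and below the difference between KO and WT in log2(FPKM + 1), was −0.68 (SE 0.16), and the gene missed the threshold (limma-trend adjusted p = 0.104). Without WT 5 it was −0.55, and in the authors' deposited table −0.29 (adjusted p = 0.437). The table gives 1 value for the whole gene and none for the deleted exons alone. Of 9 genes in a list of Hdac3, its corepressor partners and related deacetylases 0 passed. The corepressor subunit Ncor1 measured 45.5 and 43.3 FPKM in KO, against 38.3 and 44.2 FPKM in WT, and the related deacetylase Hdac2 101 and 98.8 FPKM in KO, against 117 and 89.8 FPKM in WT.

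A small set of genes passed the threshold in KO neurospheres, and a gene that missed it is not thereby shown to be unchanged. The table admits genes that fell to any level in KO but none that rose from under about 1 FPKM in WT. The part of this rule in the balance between rises and falls was not tested. The fit covered 11408 genes whose mean reached 1 FPKM, and 25 were higher in KO (0.219%) and 106 lower (0.929%) at a limma-trend adjusted p under 0.05. An unadjusted limma-trend p under 0.05 was reached by 2288 genes. Genes of interneurons, collagen IV and Spp1 stood among those that rose, and genes of glycolysis, the response to low oxygen and metal binding among those that fell. In 117 of the 131 the change was 1 or more on the log2 scale. Over all genes tested the median change was −0.15 on the log2 scale, and a change is to be read against that shift. After the libraries were rescaled to a common median ratio the median was 0.00 and the split was 52 higher and 78 lower. It was 71 and 88 after quantile normalization, and 105 and 105 after a correction for transcript length that was added after seeing the data. All 131 changes kept their direction under these 3 scalings, and the 25 rises passed under each of them. For genes chosen by their change in these same libraries, a kept direction is a weak test.

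**Figure D1:**
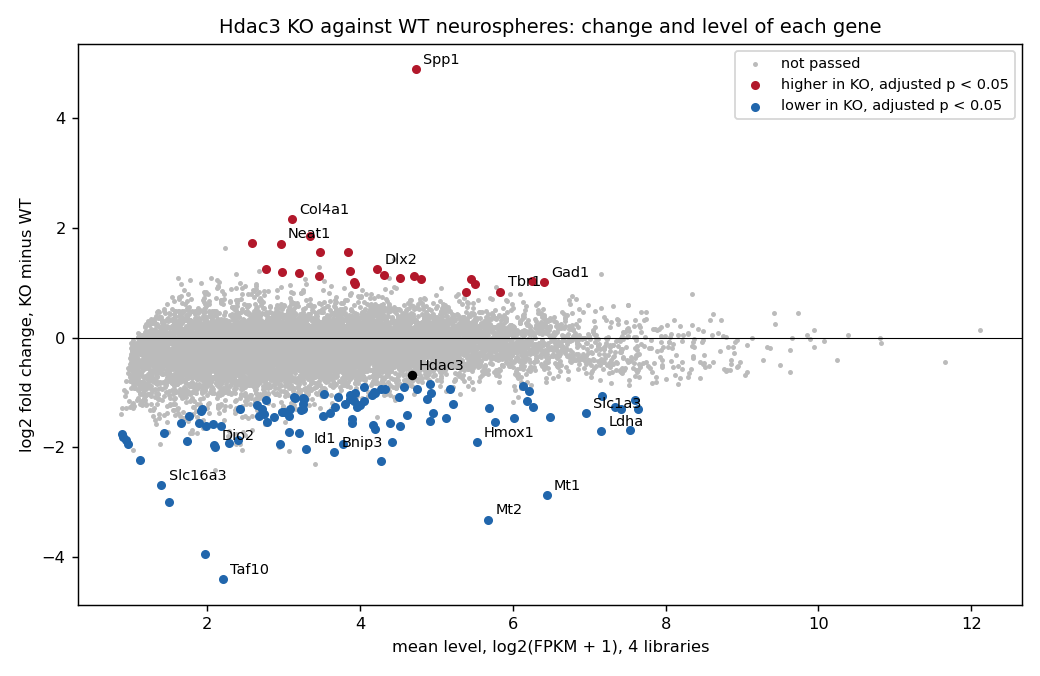
Each point is a gene, with its mean level over the 4 libraries on the horizontal axis, in log2(FPKM + 1), and its log2 fold change, KO minus WT, on the vertical axis. The 25 genes higher in KO are red and the 106 lower in KO are blue. Spp1 lies above all others at 4.89, and the metallothioneins Mt2 and Mt1 lie at −3.32 and −2.87.

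In the authors' deposited table, made with DESeq2, the balance ran the other way, with 437 genes higher in KO (3.49%) and 288 lower (2.3%) of 12510 with an adjusted p. Of the 131 genes that passed here 126 had an adjusted p there, and 107 of them were called in the same direction (24 higher and 83 lower). These are the same libraries, so the overlap is not independent evidence. The threshold here hung on both WT libraries. Without WT 5, or without WT 6, limma-trend called 0 genes in either direction, with 1227 and 2650 genes at an unadjusted p under 0.05, whereas 55 were higher and 390 lower without KO 7 and 58 and 623 without KO 8. All 131 changes kept their direction each time, which was nearly fixed in advance, because the same libraries chose these genes.

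Genes of glucose breakdown and of the response to low oxygen had the lowest medians of all lists with at least 4 measured genes. Of 22 glycolysis genes 10 fell and 0 rose, with a median log2 fold change of −1.09, and 0.929% of all tested genes fell. Of 21 hypoxia response genes 12 fell and 0 rose, with a median of −1.40, against −0.15 for all genes. The 2 lists hold 43 different genes, of which 22 fell. Without WT 5 the medians were −0.96 and −1.42, and 0 members passed without either WT library. With a pseudocount of 0.1 the counts that fell were 6 and 10. Among the 12 hypoxia genes, Car9 and Cox4i2 had a KO value of exactly 0, which can be a failed estimate, and without this pair 10 of 19 fell (median −1.37), an alternative chosen after seeing the data.

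Glucose enters these cells through the transporter Slc2a1. It measured 5.58 and 6.5 FPKM in KO 7 and KO 8, against 27.3 and 24.6 FPKM in WT 5 and WT 6, so the KO cultures held less than the WT cultures in every pairing of libraries. Its fold change was −1.94 (SE 0.17, limma-trend adjusted p = 0.00972). Inside the cell, Gpi1 converts the first phosphorylated glucose to fructose phosphate. It measured 98.7 and 107 FPKM in KO, against 351 and 312 FPKM in WT, a WT level 3.22 times the KO level (adjusted p = 0.0148). Pfkl, a subunit of the committing enzyme phosphofructokinase, measured 9.79 and 8.2 FPKM in KO, against 21.9 and 19.3 FPKM in WT. The following steps are run by aldolase (Aldoa), triosephosphate isomerase (Tpi1), phosphoglycerate kinase (Pgk1), phosphoglycerate mutase (Pgam1) and enolase (Eno1), and all of these fell. Aldoa measured 126 and 136 FPKM in KO, against 325 and 253 FPKM in WT. Tpi1 measured 47.9 and 60.4 FPKM in KO, against 171 and 127 FPKM in WT, and Pgk1 100.1 and 105 FPKM in KO, against 279 and 223 FPKM in WT. The KO libraries lay close together for each of them, while WT 5 stood above WT 6 for all 5 enzymes.

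The end of the pathway fell as well. Ldha, the lactate dehydrogenase subunit that favours lactate production, measured 77.3 and 78.6 FPKM in KO 7 and KO 8, against 296 and 221 FPKM in WT 5 and WT 6 (log2 fold change −1.70, adjusted p = 0.0196). Slc16a3 exports lactate and was nearly silent in KO, at 0.0299 and 0.0541 FPKM in KO, against 5.75 and 5.66 FPKM in WT. Its fold change was −2.69 (adjusted p = 0.00972), against −2.95 in the authors' deposited table (adjusted p = 6.02e-22). Pdk1, the kinase that keeps pyruvate out of the mitochondrion, measured 2.98 and 3.13 FPKM in KO, against 10.8 and 10.5 FPKM in WT. The groups did not overlap in any of these.

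Not every enzyme passed. Gapdh measured 254 and 284 FPKM in KO, against 480.3 and 421 FPKM in WT (log2 fold change −0.74, adjusted p = 0.129), and pyruvate kinase, Pkm, 380.1 and 400.0 FPKM in KO, against 572 and 516 FPKM in WT (adjusted p = 0.26). Ldhb, the other main lactate dehydrogenase subunit, measured 150.5 and 162 FPKM in KO, against 194 and 154 FPKM in WT. Its log2 fold change, −0.15, equalled the median of all genes. Aldoc, the brain aldolase, measured 50.6 and 71.6 FPKM in KO, against 88.4 and 72.5 FPKM in WT (adjusted p = 0.319). The hexokinase Hk2, chosen after its values were seen, measured 1.66 and 1.33 FPKM in KO, against 4.36 and 5.65 FPKM in WT and missed the threshold here (adjusted p = 0.0653), but it was lower in the authors' deposited table (log2 fold change −1.28, adjusted p = 1.95e-05). Of the 21 glycolysis genes with an adjusted p in that table, 14 were lower and 0 higher, against 2.3% lower over all genes.

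Among the other targets of low oxygen, Bnip3, which marks mitochondria for removal, measured 5.59 and 4.76 FPKM in KO 7 and KO 8, against 25.2 and 25.1 FPKM in WT 5 and WT 6, with WT replicates almost equal (log2 fold change −2.09, adjusted p = 0.00889). Egln3 is a prolyl hydroxylase that tags HIF for destruction and is itself induced by HIF. It measured 1.31 and 1.72 FPKM in KO, against 9.12 and 7.99 FPKM in WT (adjusted p = 0.0233). Vegfa, the growth factor for vessels, measured 45.7 and 51.9 FPKM in KO, against 117 and 118 FPKM in WT, and the fold change was −1.25 (adjusted p = 0.0239). The collagen prolyl hydroxylases P4ha1 and P4ha2 also fell, with 4.4 and 3.86 FPKM in KO against 13.5 and 11.98 FPKM in WT for P4ha1. Ero1l, the oxidase that forms disulphide bonds in the endoplasmic reticulum, measured 8.95 and 9.71 FPKM in KO, against 29.8 and 33.6 FPKM in WT. Ndrg1 measured 17.2 and 11.5 FPKM in KO, against 38.3 and 39.3 FPKM in WT, and the transcriptional repressor Bhlhe40 5.86 and 7.42 FPKM in KO, against 17.3 and 20.03 FPKM in WT. Car9, a carbonic anhydrase that is among the sharpest markers of hypoxia, had the value 0 in KO 7 and KO 8, while WT 5 and WT 6 held 2.36 and 2.64 FPKM. In the authors' deposited table Car9 had −1.33 (adjusted p = 7.07e-05), and Ndufa4l2, which the FPKM table lacks, had −1.50 (adjusted p = 7.86e-06).

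The transcript of the oxygen-regulated factor itself did not follow its targets. Hif1a measured 47.1 and 43.8 FPKM in KO 7 and KO 8, against 41.1 and 49.4 FPKM in WT 5 and WT 6, and the groups overlapped (log2 fold change 0.01, SE 0.15). Ddit4, another gene induced by low oxygen, measured 45.8 and 44.1 FPKM in KO, against 49.3 and 40.5 FPKM in WT (log2 fold change 0.01), and Egln1, the main oxygen sensor, 24.7 and 23.8 FPKM in KO, against 38.3 and 34.2 FPKM in WT (adjusted p = 0.121).

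**Figure D2:**
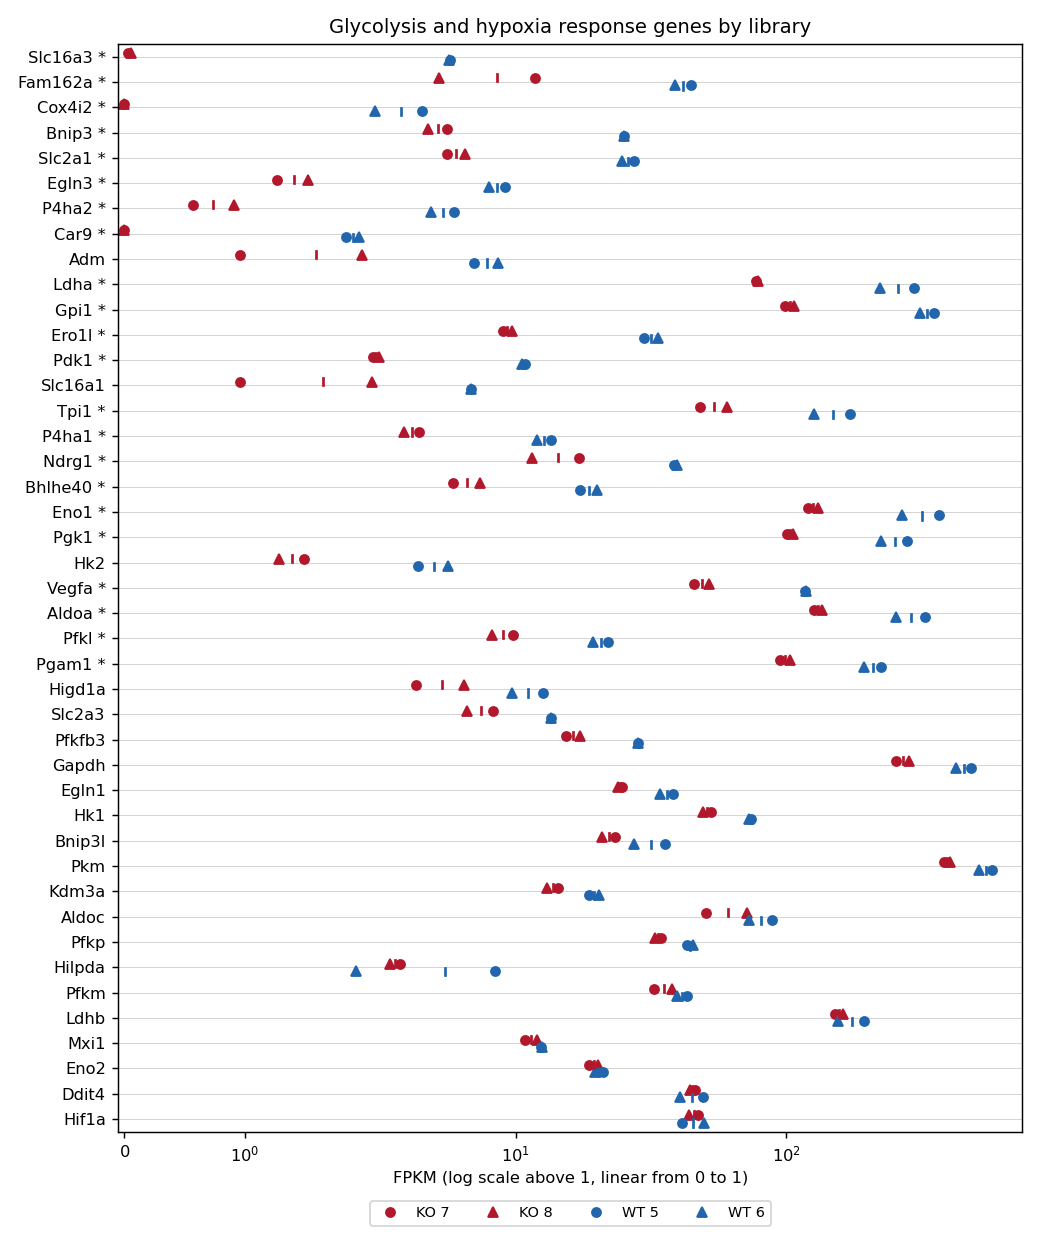
FPKM of the 43 glycolysis and hypoxia response genes in KO 7 and KO 8 (red) and WT 5 and WT 6 (blue), with short bars at the group means and asterisks at the 22 genes that passed. Genes run from the most negative log2 fold change at the top to the least at the bottom, where Ddit4 and Hif1a show overlapping groups.

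The promoters of these genes show where the letters of the HIF element lie. The windows below are the 250 bases before the start of each gene, 5′ to 3′ on the strand of the gene, from RefSeq on GRCm38.p6, with each ACGTG and its reverse complement CACGT in capitals. They are chr11:120948817-120949066 on the plus strand for Slc16a3, chr7:138909507-138909756 on the minus strand for Bnip3, chr4:119108495-119108744 on the plus strand for Slc2a1, and chr12:54203875-54204124 on the minus strand for Egln3. These 4 were chosen, after the matches were known, as genes that fell, have 1 window in the table and hold at least 1 match.
Slc16a3: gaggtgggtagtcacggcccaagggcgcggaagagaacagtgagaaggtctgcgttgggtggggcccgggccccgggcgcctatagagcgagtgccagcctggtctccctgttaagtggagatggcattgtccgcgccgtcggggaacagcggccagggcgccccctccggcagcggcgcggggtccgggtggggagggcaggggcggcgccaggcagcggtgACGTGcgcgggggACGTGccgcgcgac
Bnip3: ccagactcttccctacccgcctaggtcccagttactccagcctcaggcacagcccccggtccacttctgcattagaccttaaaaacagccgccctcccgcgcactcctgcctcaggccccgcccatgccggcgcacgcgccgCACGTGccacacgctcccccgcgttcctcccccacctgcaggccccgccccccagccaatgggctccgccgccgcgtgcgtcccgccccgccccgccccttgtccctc
Slc2a1: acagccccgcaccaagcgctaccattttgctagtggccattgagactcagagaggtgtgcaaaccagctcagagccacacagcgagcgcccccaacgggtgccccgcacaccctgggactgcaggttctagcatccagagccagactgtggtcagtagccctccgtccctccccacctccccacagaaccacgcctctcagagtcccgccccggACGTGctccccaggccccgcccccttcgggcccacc
Egln3: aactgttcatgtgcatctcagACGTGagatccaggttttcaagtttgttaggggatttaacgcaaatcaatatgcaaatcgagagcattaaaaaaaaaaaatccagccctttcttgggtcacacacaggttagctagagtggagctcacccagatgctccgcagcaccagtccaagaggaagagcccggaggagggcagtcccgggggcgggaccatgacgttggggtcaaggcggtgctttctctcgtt
Slc16a3 holds 2 copies just before its start, Bnip3 a CACGTG that reads the same on both strands and so counts on each, and Slc2a1 and Egln3 1 copy each. Of the 22 genes of these lists that fell, 19 had at least 1 window in the table, and 14 of the 19 (73.7%) held ACGTG on either strand. Of the members that did not pass, 10 of 19 genes (52.6%) held it. The share was 25.8% among 9155 tested genes with a window. These lists are rich in known HIF targets, and a match is a description of these letters and not of binding.

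The metallothioneins, small proteins that bind zinc and copper, fell further than any enzyme of glycolysis. Mt2 measured 12.6 and 18.4 FPKM in KO 7 and KO 8, against 194 and 133 FPKM in WT 5 and WT 6, and Mt1 19.5 and 49.8 FPKM in KO, against 272 and 201 FPKM in WT. The KO libraries differed from each other for Mt1, yet both lay below both WT libraries for either gene. The log2 fold changes were −3.32 (adjusted p = 0.00525) and −2.87 (adjusted p = 0.0350). Mt3, the form found in brain, did not pass. It measured 62.2 and 48.1 FPKM in KO, against 80.3 and 59.4 FPKM in WT, so the groups overlapped (log2 fold change −0.33, adjusted p = 0.399). Hmox1, which breaks down haem and is induced by metals and oxidants, measured 19.5 and 26.6 FPKM in KO, against 94.6 and 82.3 FPKM in WT (log2 fold change −1.91, adjusted p = 0.0143). Of the 13 genes of metal handling these 3 fell and 0 rose, against 0.929% of all tested genes that fell. The ferritin light chain Ftl1 measured 512 and 561 FPKM in KO, against 849 and 599 FPKM in WT, and the heavy chain Fth1 311 and 399 FPKM in KO, against 421 and 311 FPKM in WT, and neither passed.

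Genes of neural stem cells and astrocytes had negative medians, with few members that passed. Of 25 genes of neural stem cells and radial glia 2 fell and 0 rose (median −0.53), against 0.929% of all tested genes that fell. Slc1a3, the glutamate transporter of radial glia and astrocytes, measured 75.2 and 77.04 FPKM in KO 7 and KO 8, against 203 and 195 FPKM in WT 5 and WT 6 (log2 fold change −1.38, adjusted p = 0.0181). Ccnd2, the D-type cyclin of dividing progenitors, measured 46.1 and 49 FPKM in KO, against 105 and 109.8 FPKM in WT (adjusted p = 0.0266). Both stood clear of the WT values by more than the spread between replicates. Nes and Fabp7, given above, did not pass (log2 fold changes −0.64 and −0.58, adjusted p = 0.129 and 0.26). Vim, the filament of progenitors and glia, measured 285 and 395 FPKM in KO, against 513 and 404 FPKM in WT, so KO 8 lay close to WT 6. Sox1, chosen after its values were seen, went the other way with 11.4 and 14.4 FPKM in KO, against 6.02 and 5.92 FPKM in WT, and it passed after rescaling (adjusted p = 0.0401) but not before (adjusted p = 0.0701).

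The Id proteins block basic helix-loop-helix factors and are classic targets of BMP signals. Id1 measured 5.14 and 2.86 FPKM in KO 7 and KO 8, against 24.6 and 14.2 FPKM in WT 5 and WT 6 (log2 fold change −2.02, adjusted p = 0.0423), and Id3 12.2 and 10.3 FPKM in KO, against 39.8 and 30.7 FPKM in WT (log2 fold change −1.56, adjusted p = 0.0239). The other members did not pass. Id2 measured 134 and 136 FPKM in KO, against 184 and 132 FPKM in WT, and Id4 17.2 and 23.1 FPKM in KO, against 18.5 and 13.8 FPKM in WT, and both overlapped between the groups. Of 16 Notch pathway genes 0 passed (median −0.57). The receptor Notch1 measured 25.3 and 27.3 FPKM in KO, against 17.8 and 20.6 FPKM in WT (log2 fold change 0.43), while its targets Hes1 and Hes5, chosen after their values were seen, lay lower in each KO library than in each WT library. Hes1 measured 1.33 and 0.48 FPKM in KO, against 3.72 and 3.48 FPKM in WT (adjusted p = 0.0891), and Hes5 3.87 and 1.52 FPKM in KO, against 8.11 and 5.5 FPKM in WT (adjusted p = 0.155).

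Of 21 astrocyte genes 2 fell, Id3 and Sparcl1, and 0 rose (median −0.37), against 0.929% of all tested genes that fell. Sparcl1, a secreted protein of astrocytes that promotes synapses, measured 33.5 and 28.9 FPKM in KO, against 96.4 and 87.03 FPKM in WT (adjusted p = 0.0147). Apoe, the lipid carrier of astrocytes, measured 262 and 360.4 FPKM in KO, against 370.3 and 313 FPKM in WT, with groups that overlapped. Of 16 genes of the oligodendrocyte lineage Mbp, which encodes myelin basic protein, rose, with 10.1 and 11.9 FPKM in KO, against 4.5 and 3.97 FPKM in WT (log2 fold change 1.19, adjusted p = 0.0471). The share of all tested genes that rose was 0.219%. The lineage factor Olig1 measured 141 and 136 FPKM in KO, against 133 and 118 FPKM in WT, and Olig2 50.02 and 52.4 FPKM in KO, against 88.3 and 75.04 FPKM in WT, and neither passed. Olig2 was called lower in the authors' deposited table (−0.50, adjusted p = 0.0120).

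Genes of dividing cells had negative medians in KO, and most missed the threshold. All 25 genes of the G2 and M phases had negative log2 fold changes (median −0.84), 3 of them fell and 0 rose. Of all tested genes 0.929% fell. Tpx2, which builds the spindle, measured 11.5 and 12.2 FPKM in KO 7 and KO 8, against 24.5 and 25.3 FPKM in WT 5 and WT 6 (log2 fold change −1.01, adjusted p = 0.0401). Ccnb1, the cyclin of mitosis, measured 5.62 and 5.48 FPKM in KO, against 13.8 and 12.6 FPKM in WT (adjusted p = 0.0433), and Nusap1, a spindle protein, 3.08 and 4.89 FPKM in KO, against 11.3 and 11.8 FPKM in WT (adjusted p = 0.0487). After rescaling none of the 3 passed (adjusted p = 0.0551, 0.0534 and 0.0604), and the median was −0.71. Top2a, the topoisomerase of dividing cells, measured 11.8 and 14.2 FPKM in KO, against 22.7 and 22.6 FPKM in WT, and the anaphase ubiquitin enzyme Ube2c 28.9 and 23.5 FPKM in KO, against 54.04 and 45.7 FPKM in WT. Of these 25 genes 11 were lower and 0 higher in the authors' deposited table, against 2.3% lower over all its genes with an adjusted p. The 23 S phase genes had values from −0.73 to −0.05 (median −0.45), some of them above the median of all genes, and 0 passed. The replication clamp Pcna measured 53.5 and 51.4 FPKM in KO, against 70.9 and 57.8 FPKM in WT, and Rrm2, the regulated subunit of ribonucleotide reductase, 21.2 and 23.6 FPKM in KO, against 44.1 and 30.4 FPKM in WT. Without WT 5 the medians were −0.83 for G2 and M phase and −0.24 for S phase.

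Genes of GABAergic interneurons rose together. Of 28 measured members 8 rose and 0 fell, 25 lay above 0 and the median log2 fold change was 0.78. The share of all tested genes that rose was 0.219%. Without WT 5 the median was 0.73, and 0 members passed without either WT library. With a pseudocount of 0.1, 4 members rose, and 12, 13 and 14 rose after rescaling, quantile normalization and length correction.

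The Dlx homeobox genes switch on the interneuron programme in the ventral forebrain. Dlx2 measured 26.2 and 29.6 FPKM in KO 7 and KO 8, against 11.2 and 11.2 FPKM in WT 5 and WT 6, with WT libraries that were nearly equal (log2 fold change 1.25, SE 0.15, adjusted p = 0.0282). Dlx1 measured 31.5 and 33.3 FPKM in KO, against 15.3 and 14.2 FPKM in WT (adjusted p = 0.0347), and its antisense transcript Dlx1as 40.1 and 38.3 FPKM in KO, against 20.9 and 15.8 FPKM in WT. Dlx6 measured 9.49 and 9.61 FPKM in KO, against 3.92 and 2.94 FPKM in WT (adjusted p = 0.0471). No source used here says whether strand entered the counting, so the values of Dlx1 and Dlx6 and of the transcripts that overlap them cannot be told apart with certainty. Lhx6, the factor of interneurons from the medial ganglionic eminence, measured 62.9 and 61.6 FPKM in KO, against 29.9 and 28.2 FPKM in WT, and Maf, which acts after it, 38.7 and 36.8 FPKM in KO, against 17.4 and 16.02 FPKM in WT. In all of these each KO library lay above both WT libraries, which describes the values and is no further test.

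The enzymes and the carrier of the transmitter followed. Gad1 and Gad2 make GABA from glutamate. Gad1 measured 116 and 123 FPKM in KO 7 and KO 8, against 63.8 and 53.6 FPKM in WT 5 and WT 6 (log2 fold change 1.01, adjusted p = 0.0421), and Gad2 21.1 and 20.2 FPKM in KO, against 10.7 and 8.77 FPKM in WT (adjusted p = 0.0471). Slc32a1, which loads GABA into vesicles, measured 19.5 and 21.6 FPKM in KO, against 10.4 and 9.46 FPKM in WT (adjusted p = 0.0471). These are close to a doubling on the linear scale, with ratios of KO to WT of 2.03, 2.13 and 2.07. The peptide somatostatin, Sst, was the most abundant member, with 996 and 989 FPKM in KO, against 822 and 640.3 FPKM in WT, and it did not pass (log2 fold change 0.45, adjusted p = 0.388). The secreted guidance protein Reln measured 86.3 and 76.9 FPKM in KO, against 37.4 and 57.1 FPKM in WT and did not pass either (adjusted p = 0.126). In the authors' deposited table, 14 of 30 members, with Sst and Reln among them, were higher and 0 lower, against 3.49% higher over all genes. Of the list, Nkx2-1, Gsx2, Lhx8, Npas1, Cck and Cxcr7 were absent from the FPKM table.

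**Figure D3:**
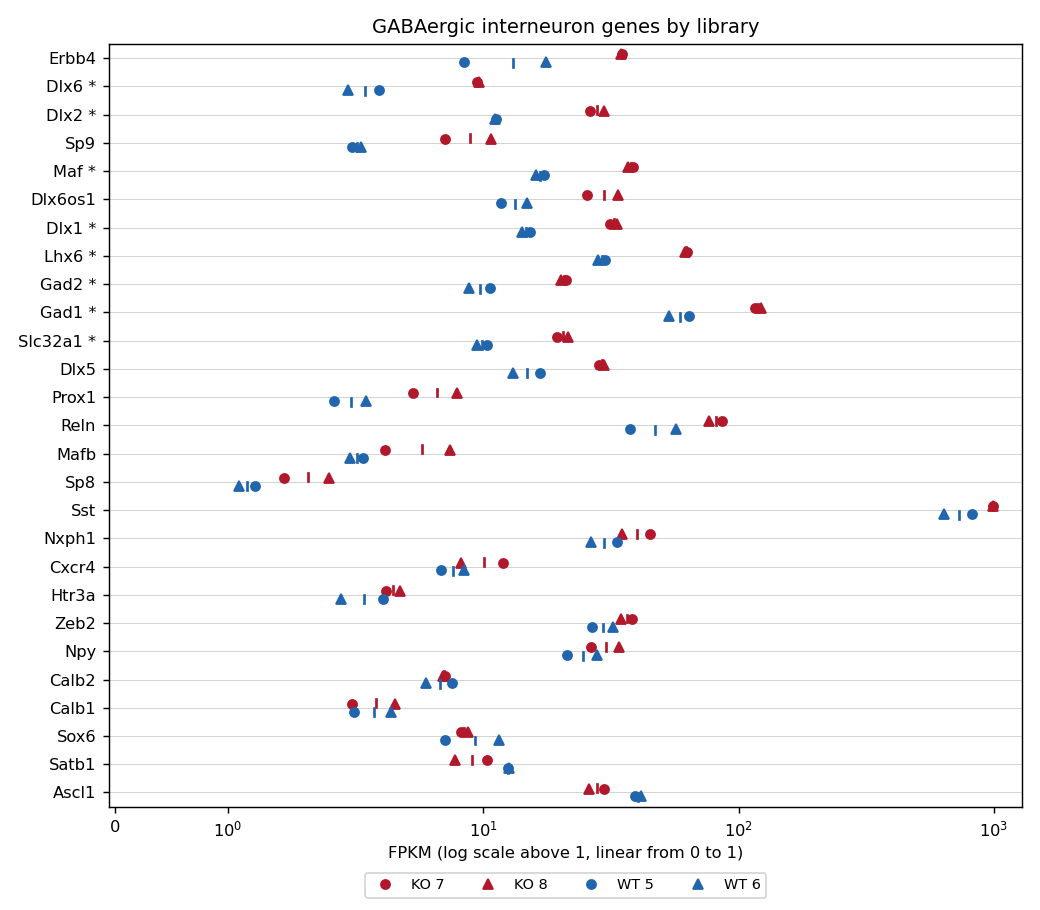
FPKM of 27 of the 28 measured GABAergic interneuron genes (1 is not reported here by name) in KO 7 and KO 8 (red) and WT 5 and WT 6 (blue), with short bars at the group means and asterisks at the 8 genes that rose. Genes run from the largest log2 fold change at the top to the lowest at the bottom. From Sp9 and Dlx2 to Gad1 the red symbols lie to the right of the blue ones, and for Calb2 and Calb1 they overlap.

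Of 19 genes of glutamatergic cortical neurons Tbr1 rose and 0 fell (median −0.25). The count that rose was 4 after each of rescaling, quantile normalization and length correction, and 6 of 20 were higher and 1 lower in the authors' deposited table. Tbr1, the factor of early-born cortical neurons, measured 73.7 and 77.5 FPKM in KO 7 and KO 8, against 41.6 and 41.7 FPKM in WT 5 and WT 6 (log2 fold change 0.84, adjusted p = 0.0471). Neurod2 measured 89.1 and 84.6 FPKM in KO, against 59.6 and 50.9 FPKM in WT (adjusted p = 0.1003, and 0.0325 after rescaling). Neurod6, its relative in the same neurons, measured 135 and 103 FPKM in KO, against 195 and 159 FPKM in WT, lower in both KO libraries than in both WT libraries (log2 fold change −0.57, adjusted p = 0.189). The list thus held members on both sides of 0. Of 21 pan-neuronal genes 0 passed, and 18 lay above 0 (median 0.22), while 6 rose after length correction and 2 after quantile normalization. Tubb3 had a log2 fold change of 0.05, and Nsg2, a vesicle protein of young neurons, measured 422 and 435 FPKM in KO, against 382 and 306 FPKM in WT (adjusted p = 0.424). The authors' deposited table called 8 of 21 of the pan-neuronal genes higher and 0 lower, against the same 3.49% and 2.3% over all genes. Some genes outside these lists, named from the largest rises, are known from neurons, whereas Thy1, a surface protein of neurons given below, fell. Nrp2, a semaphorin receptor, measured 19.4 and 23.5 FPKM in KO, against 7.86 and 9.39 FPKM in WT, and Plxna2, a plexin that works with it, 59.3 and 66.5 FPKM in KO, against 29.1 and 33.8 FPKM in WT. Sez6, a neuronal membrane protein, measured 119 and 98.2 FPKM in KO, against 51.2 and 54.02 FPKM in WT, and Rph3a, which binds synaptic vesicles, 52.5 and 57.4 FPKM in KO, against 29 and 31.4 FPKM in WT. The homeobox factor Pbx3 measured 11.9 and 13.95 FPKM in KO, against 5.58 and 4.65 FPKM in WT, and the HMG box factor Tox2 26.8 and 30.7 FPKM in KO, against 11.3 and 13.6 FPKM in WT.

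Genes of the extracellular matrix held the steepest rise. Spp1, the secreted phosphoprotein osteopontin, measured 119 and 173 FPKM in KO 7 and KO 8, against 4.86 and 3.04 FPKM in WT 5 and WT 6, so it was 37.02 times higher in KO (log2 fold change 4.89, SE 0.24, adjusted p = 0.00133). Col4a1 and Col4a2 pair to form the collagen of basement membranes. Col4a1 measured 15.7 and 18.96 FPKM in KO, against 3.08 and 3.08 FPKM in WT, and Col4a2 17.3 and 19.3 FPKM in KO, against 3.74 and 5.02 FPKM in WT. Both rose by similar amounts, with log2 fold changes of 2.16 and 1.85 (adjusted p = 0.00972 and 0.0176). Dcn, the small proteoglycan decorin, measured 10.5 and 9.46 FPKM in KO, against 2.98 and 1.71 FPKM in WT (adjusted p = 0.0358). Ptgds, a prostaglandin synthase abundant in the meninges, measured 14.4 and 16.2 FPKM in KO, against 6.62 and 6.24 FPKM in WT.

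Other matrix genes fell. Bcan, the brain proteoglycan brevican, measured 16.4 and 21.7 FPKM in KO, against 43.8 and 40.9 FPKM in WT (adjusted p = 0.0421). Fbln2, a basement membrane glycoprotein, measured 12.2 and 12.1 FPKM in KO, against 35.7 and 42.5 FPKM in WT (log2 fold change −1.61, adjusted p = 0.0143). Igfbp2, which binds insulin-like growth factors, measured 108 and 109.8 FPKM in KO, against 293 and 244 FPKM in WT (adjusted p = 0.0334). Of 16 genes of collagens and basement membrane 2 rose and 0 fell (median 0.01, and −0.07 without WT 5), and of 19 other matrix genes 2 rose and 2 fell (median −0.07, and 0.09 after rescaling). Of all tested genes 0.219% rose and 0.929% fell. The laminin chain Lamc1 measured 10.8 and 15.6 FPKM in KO, against 15.05 and 19.2 FPKM in WT (adjusted p = 0.393), and the collagen chaperone Serpinh1 47.4 and 55.1 FPKM in KO, against 76.4 and 67.6 FPKM in WT.

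Many collagen genes are not in the FPKM table. Of 1905 genes absent from it with an adjusted p in the authors' deposited table, 70 were higher in KO (3.67%) and 12 lower (0.63%). Of the 27 collagen and basement membrane genes with an adjusted p there, 13 were higher and 1 lower, against 3.49% and 2.3% over all genes. Of these 13, 9 were absent from the FPKM table. The largest was Col3a1, a fibrillar collagen, which the authors' deposited table put at 4.28 on the log2 scale (SE 0.23, adjusted p = 8.27e-74). Col1a1, the main chain of collagen I, had 3.28, and its partner Col1a2 0.74, in the authors' deposited table. The 3 chains of collagen VI had 2.55 for Col6a1, 3.23 for Col6a2 and 3.74 for Col6a3 in that same authors' deposited table. The nidogens Nid1 and Nid2, which link laminin to collagen IV, had 1.66 and 0.999. Of the other matrix genes 10 of 26 were higher and 3 lower in the authors' deposited table, among them the matricellular protein Postn (1.77), the metalloprotease Mmp2 (1.19) and the proteoglycans Acan (0.998) and Bgn (0.97). Lum, another proteoglycan of fibroblasts, had 0.14 (adjusted p = 0.639) there.

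Some markers of fibroblasts and mural cells were higher as well. Of 11 meningeal fibroblast markers with an adjusted p in the authors' deposited table, 7 were higher and 0 lower, against 3.49% higher over all genes. Col1a1, Col1a2, Col3a1 and Dcn of these 7 are also counted in the matrix lists. The others included Tbx18, a factor of mural cells and meninges (1.95), and Pdgfrb, the receptor of pericytes and fibroblasts (1.39). Anpep, a surface peptidase of pericytes, had 1.61 in the authors' deposited table. Other markers of these cells, named after their values were seen, were not called there, with −0.21 for Rgs5, −0.43 for Cspg4, 0.33 for Acta2 and −0.37 for Fbln1. Defining markers of endothelium stayed near the floor, with mean normalized counts of 22.2 for Pecam1, 10.3 for Cdh5 and 0.443 for Cldn5 in the authors' deposited table, against a median of 256 over all its genes. Markers of microglia were as low, at 2.51 for Csf1r, 2.66 for Cx3cr1, 5.02 for C1qa and 0.753 for P2ry12. In the FPKM table the 4 meningeal markers present summed to 791 and 845 FPKM in KO, against 664 and 536 FPKM in WT, nearly all of it Nnat, which is also a neuronal gene. The 4 microglial markers present summed to 53.8 and 73 FPKM in KO, against 104 and 70.1 FPKM in WT. The 2 endothelial and pericyte markers summed to 9.1 and 11 FPKM in KO, against 12.2 and 14.4 FPKM in WT. The part of fibroblasts or mural cells in the matrix result was not tested. Hba-a1, an alpha globin gene and the single erythroid marker in the table, measured 22.1 and 25.5 FPKM in KO, against 9.87 and 5.47 FPKM in WT and passed (adjusted p = 0.0471), although its reads are shared with the near-identical Hba-a2. The red cell gene Alas2, which starts haem synthesis, had a mean normalized count of 6.99 in the authors' deposited table.

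**Figure D4:**
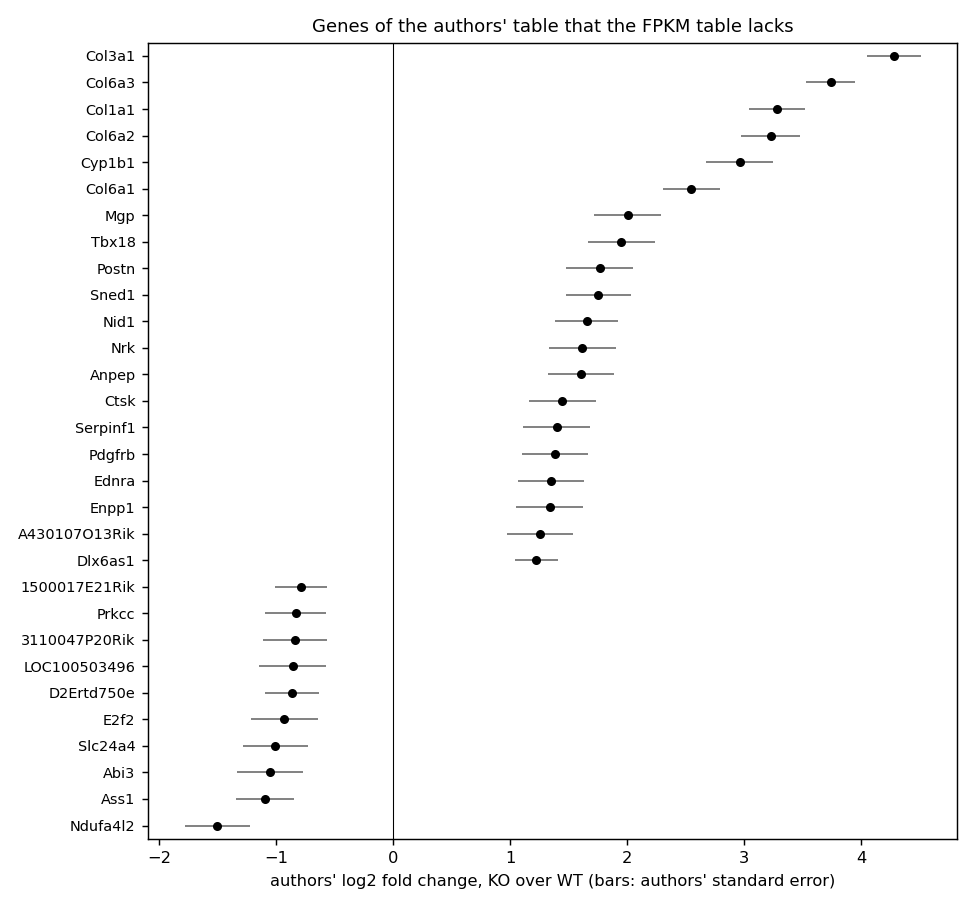
The authors' log2 fold change, KO over WT, with the authors' standard error as bars, for the 20 largest rises and the 10 largest falls printed from their table among genes with an adjusted p under 0.05 that the FPKM table lacks. Collagens fill 5 of the upper 6 places, from Col3a1 at 4.28 to Col6a1 at 2.55, and Ndufa4l2 has the lowest value at −1.50.

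The authors' deposited table of gene ontology terms among genes the authors called in neurospheres listed 2001 terms, of which 54 had an adjusted p under 0.05. The number of genes entered and the cut that chose them were not read here. They need not be the 437 higher and 288 lower genes given above. The term of lowest p was extracellular matrix organization, with 28 of 230 genes and an odds ratio of 7.47 (authors' adjusted p = 5.78e-13). Glycolytic process followed, with 7 of 23 genes and an odds ratio of 18.7 (authors' adjusted p = 1.43e-04).

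Several single genes outside these groups stood out. Neat1, the noncoding RNA that scaffolds nuclear paraspeckles, measured 10.8 and 16.01 FPKM in KO 7 and KO 8, against 2.93 and 3.72 FPKM in WT 5 and WT 6 (log2 fold change 1.72, adjusted p = 0.0354). Of 6 nuclear noncoding RNAs measured it was the 1 that passed, and Malat1, its neighbour in the genome, measured 263 and 359 FPKM in KO, against 229 and 263 FPKM in WT (adjusted p = 0.443). Rasgef1b, an exchange factor for Ras-family proteins, measured 21.9 and 15.2 FPKM in KO, against 6.06 and 4.98 FPKM in WT (adjusted p = 0.0358). Dio2, which activates thyroid hormone inside glia, measured 0.894 and 1.48 FPKM in KO, against 7.01 and 7.89 FPKM in WT (log2 fold change −1.96, adjusted p = 0.0266). The hormone receptor Thra, which recruits HDAC3 through its corepressors, measured 202 and 189 FPKM in KO, against 165 and 156 FPKM in WT and did not pass (adjusted p = 0.368), while the authors' deposited table called it higher (0.39, adjusted p = 0.0427). Cav1, the coat protein of caveolae, measured 2.35 and 3.64 FPKM in KO, against 14.9 and 13.4 FPKM in WT, and Ramp1, a subunit of the CGRP receptor, 1.998 and 1.53 FPKM in KO, against 12.8 and 6.39 FPKM in WT. Rspo2, which strengthens Wnt signals, measured 0.557 and 0.412 FPKM in KO, against 3.46 and 4.47 FPKM in WT (log2 fold change −1.74, adjusted p = 0.0358) and was the 1 of 21 Wnt pathway genes that passed. Thy1, a surface protein of neurons, measured 32.5 and 31.3 FPKM in KO, against 78.6 and 79.9 FPKM in WT (adjusted p = 0.0176). Slc38a3, a glutamine transporter, measured 8.03 and 7.81 FPKM in KO, against 24.1 and 23.8 FPKM in WT, and Glud1, the enzyme that breaks down glutamate, 21.2 and 19.9 FPKM in KO, against 44.8 and 39.7 FPKM in WT. Egr1, the immediate early transcription factor, measured 53.9 and 50.2 FPKM in KO, against 109 and 97.5 FPKM in WT (adjusted p = 0.0421), whereas Fos measured 21.7 and 18.3 FPKM in KO, against 20.1 and 20.6 FPKM in WT. Egr1 was the 1 of 18 immediate early genes that passed, and Dio2 the 1 of 18 genes of nuclear receptors and thyroid hormone. Over all tested genes 0.219% rose and 0.929% fell.

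**Figure D5:**
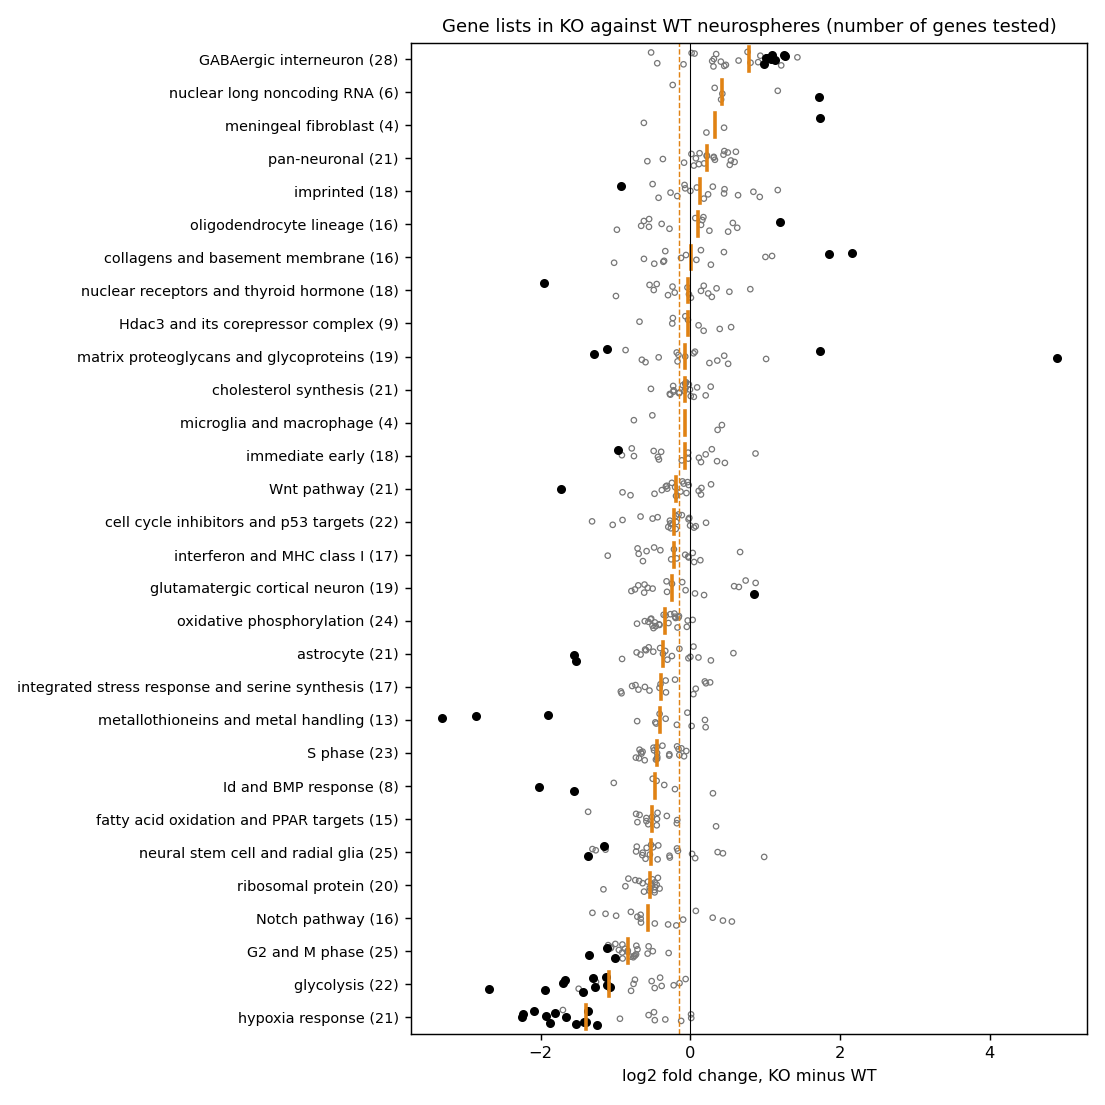
Log2 fold change, KO minus WT, of each measured gene in the lists with at least 4 measured genes. Filled circles passed, open circles did not, orange bars are list medians, and the dashed line is the median of all genes at −0.15. GABAergic interneuron genes have the highest median at 0.78, and hypoxia response genes the lowest at −1.40.

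Some of the largest falls rest on values of exactly 0. A value of 0 in any library occurred for 82 of the 11496 genes, for 16 of them in both KO libraries, for 40 in KO 7 alone, for 26 in KO 8 alone and for 0 in a WT library. Taf10, a subunit of the general transcription factor TFIID that every cell uses, had a listed value of 0 in KO 7 and KO 8, whereas WT 5 and WT 6 held 23.5 and 17.3 FPKM. 1500012F01Rik was listed at 0 against 16.98 and 12.03 FPKM, and Gm6644 against 6.1 and 7.9 FPKM. Rad54l, a DNA repair helicase, was listed at 0 against 2.55 and 3.1 FPKM, and Aldh16a1, Spata2l and Cox4i2 likewise. Of the 16 genes 8 passed with limma-trend, 6 had an adjusted p in the authors' deposited table, and 1 of those, Car9, was called there. That table gave Taf10 −0.22 (adjusted p = 0.763), 1500012F01Rik −0.53 (adjusted p = 0.323) and Rad54l −0.50 (adjusted p = 0.358). Bola2 and Mrpl54, whose KO values were low but above 0, also passed here (log2 fold changes −1.91 and −1.74) and not in the authors' deposited table (−0.40 and −0.59, adjusted p = 0.522 and 0.254). An exact 0 can be a failed estimate, and no fold change is given for these genes.

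The libraries differed by transcript length. In 5 equal bins of genes from short to long transcripts, the median log2 fold change between KO and WT was −0.31, −0.22, −0.15, −0.10 and 0.01. The same bins gave 0.35, 0.22, 0.15, 0.05 and −0.14 for WT 5 minus WT 6, and −0.13, −0.11, −0.08, −0.07 and −0.04 for the KO mean minus WT 6. WT 5 was thus the library that stood apart. The ribosomal protein genes, which are short, had a median of −0.53 with 0 of 20 that passed, and it was −0.26 without WT 5 and −0.24 after length correction. For the glycolysis list the median was −0.82 after length correction, with 11 that fell, and for the hypoxia list −1.26, with 12.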

How the data were processed

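RNA of 2 Hdac3 KO and 2 WT neurosphere cultures was sequenced after poly(A) priming with a stranded kit, per the labels' protocols. The submitters' processing notes name mm9 and, in no order, the authors' tools Cufflinks, DESeq2, Bowtie, STAR, featureCounts and Trim Galore, without versions. FPKM values per library were deposited with interval bounds, as was a table the authors made with DESeq2, with a signal column (the mean normalized count), log2 fold changes, standard errors and p-values. A further deposited table gave the authors' gene ontology terms, with p-values and odds ratios (a ratio scale). Total counts were not used here, so depth was read from the intervals, taken as 2 SD on each side.

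Rows with a date for a symbol (20) and repeated symbols (20) were removed from 11536 rows. Genes whose mean reached 1 FPKM were fitted on log2(FPKM + 1), so fold changes of low genes are understated. The fit was limma-trend (limma 3.58.1, R 4.3.3, two-sided), and p-values were adjusted over the whole table by Benjamini and Hochberg, with a call under 0.05. The same fit was also run on simulated data with known changes, whose levels and spread were taken from these libraries. Tables and figures used Python 3.11.15, pandas 2.3.3 and matplotlib 3.10.9. Alternatives were a pseudocount of 0.1, no filter, a mean of at least 5 FPKM, median-ratio rescaling, quantile normalization, leaving out each library, and a length correction (lowess, span 0.3, on GENCODE M21 transcript lengths, found for 99.6% of genes) added after seeing the data. Promoter windows came from RefSeq on GRCm38.p6. No coordinates of the deposited tables were used.

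The 34 gene lists and the members were chosen with earlier results of these data known. Genes were named by a fixed rule: Hdac3, the 25 largest rises and 25 largest falls that passed, genes at 0 in both KO libraries, list members that passed and up to 4 others of highest mean per list, from the authors' table of genes absent here the 10 largest changes each way and list members, and the 6 genes whose KO libraries differed most. Other genes are said to be chosen after their values were seen. The markers of the label check, the other genes that passed and the scarce markers of other cell types were also chosen so. Some genes counted in the lists are not reported here by name.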

Additional observations from a re-analysis of the deposited data

How the results depend on the processing

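The counts of 25 genes higher and 106 lower in KO moved with the processing. All 131 genes kept their direction wherever they were tested (111 of them at a mean of at least 5 FPKM). Their direction is a weak test, since the same libraries chose them. A pseudocount of 0.1 gave 11 higher and 54 lower. Median-ratio rescaling gave 52 higher, quantile normalization 71 and the length correction 105, against 78, 88 and 105 lower. With 1 library left out, the count ranged from 0 to 58 for higher and from 0 to 623 for lower. With 1 library in a group, the fit assumes that it varies like the other group. Of the genes lower in KO, 78 passed again after rescaling and 87 after length correction. Without a filter the counts were 24 and 94, and at a mean of at least 5 FPKM 29 and 104. The cause was not tested. No paired analysis was possible because KO and WT neurospheres share no replicate number in the labels. The median gene rested on 348 to 440 fragments per library, and genes with fewer fragments were measured less precisely.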

Other observations

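Genes of 3 protease-activated receptors, which sense thrombin and other proteases, fell in KO. These genes were chosen after their values were seen. F2r, the thrombin receptor, measured 22.2 and 25.1 FPKM in KO 7 and KO 8, against 57.03 and 54.1 FPKM in WT 5 and WT 6 (log2 fold change −1.20, limma-trend adjusted p = 0.0265). F2rl1 measured 4.91 and 5.22 FPKM in KO, against 12.4 and 11.5 FPKM in WT (log2 fold change −1.09, adjusted p = 0.0471), and F2rl2 1.12 and 1.2 FPKM in KO, against 5.6 and 5.09 FPKM in WT (log2 fold change −1.55, adjusted p = 0.0358). The 3 genes lie near each other on chromosome 13 of GRCm38.p6, with Iqgap2, a scaffold protein gene, between F2r and F2rl2. Iqgap2 measured 1.65 and 2.12 FPKM in KO, against 3.17 and 3.62 FPKM in WT and did not pass (log2 fold change −0.61, adjusted p = 0.213). The nearby genes Crhbp, S100z, Sv2c and Poc5 were not examined here, and a shared fall of the neighbourhood was not tested. F2rl1 missed the threshold after rescaling (adjusted p = 0.0605), and F2r, F2rl1 and F2rl2 were lower in the authors' deposited table (log2 fold changes −0.98, −0.94 and −1.35).

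Maternally expressed noncoding RNAs of 1 imprinted cluster had high values in KO. Meg3 measured 273 and 166 FPKM in KO 7 and KO 8, against 86.8 and 102 FPKM in WT 5 and WT 6 (log2 fold change 1.17, adjusted p = 0.0838). Rian and Mirg, chosen after their values were seen, come from the same cluster. Rian measured 107 and 51.5 FPKM in KO, against 42 and 35.7 FPKM in WT, and Mirg 15.6 and 6.93 FPKM in KO, against 5.65 and 5.14 FPKM in WT. KO 7 held the highest value of all 4 libraries for each of the 3, and none passed. Of 18 imprinted genes Grb10, an adaptor that dampens insulin signals, fell, with 13.8 and 13.2 FPKM in KO, against 25.8 and 27.6 FPKM in WT (adjusted p = 0.0442, and 0.0719 after rescaling). In the authors' deposited table Meg3 was higher (0.88, adjusted p = 0.0267) and so was Nnat (0.55).

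Lipid metabolism, which HDAC3 is known to control in liver, held no gene that passed, with 0 of 21 for cholesterol synthesis (median −0.07, and 0.08 after rescaling) and 0 of 15 for fatty acid oxidation (median −0.51). Hmgcs1, the first committed enzyme of sterol synthesis, measured 336 and 312 FPKM in KO, against 347 and 267 FPKM in WT. Of 24 genes of oxidative phosphorylation 0 passed (median −0.34), and of 17 of the integrated stress response 0 (median −0.40), where the stress factor Atf4 measured 154 and 133 FPKM in KO, against 132 and 118 FPKM in WT. Of 22 cell cycle inhibitors and p53 targets 0 passed (median −0.22), with the inhibitor Cdkn1a at 114 and 124 FPKM in KO, against 182 and 143 FPKM in WT. Calls in the authors' deposited table were 0 of 20 cholesterol, 0 of 15 fatty acid oxidation, 0 of 24 oxidative phosphorylation, 4 of 19 stress response and 1 of 23 p53 genes, all 5 of them lower. Over all genes with an adjusted p there, 2.3% were lower. Of the 4 microglial, 2 endothelial and pericyte and 1 ependymal markers tested 0 passed. The list of X inactivation and Y-linked genes had 0 members in the FPKM table, which admits only genes with at least 0.9994 FPKM in both WT libraries. In the authors' deposited table Xist had a mean normalized count of 27212, and the Y-linked Ddx3y, Eif2s3y, Kdm5d and Uty had 409, 561, 327 and 196. The log2 fold changes there were 0.002 for Xist and −0.001, 0.010, 0.0005 and 0.002 for these Y-linked genes. RNA of both sexes was thus present, but no value per library is given for these genes. WT libraries that differed in sex would leave Xist and the Y-linked genes out of the FPKM table, which was not tested. Sex did not enter the fit, and its part in the calls was not tested.

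The KO cultures differed from each other in interferon-induced genes. Of 17 genes of this list and of MHC class I 0 passed (median −0.22). Without KO 8 the median was −0.99, against −0.15 over all genes, and without KO 7 it was 0.24, against −0.13 over all genes. B2m, the light chain of MHC class I, measured 64.9 and 147 FPKM in KO, against 140.1 and 134 FPKM in WT, and the antiviral membrane protein Ifitm3 7.4 and 29.01 FPKM in KO, against 31.95 and 18.9 FPKM in WT. Isg15, chosen after its values were seen, measured 1.77 and 22.7 FPKM in KO, against 7.88 and 6.63 FPKM in WT. KO 8 thus exceeded KO 7 in each of the 3. The 6 genes whose KO libraries differed most (Ak6, Eif3j2, BC029722, Brip1os, Apoo-ps and Rab26os) were each listed at 0 in 1 KO library and at 7.74 to 21.9 FPKM in the other. The table holds no such value for a WT library, since each of its genes has at least 0.9994 FPKM in both.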
